A study of Homo sapiens with 6 samples.

Results

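The plasminogen activation and thrombospondin genes described here are PLAU, PLAT, PLAUR, SERPINE2, SERPINB2, THBS1 and THBS2, 7 genes chosen by symbol from the 35993 genes of a deposited count table. The table comes from RNA-seq of the pancreatic carcinoma line MIA PaCa-2, of human origin, with 3 libraries of untreated cells and 3 of cells kept for 48 h with rhCYGB at 4 µM. rhCYGB is recombinant human cytoglobin, a heme protein that the authors made in E. coli. All cells were moved to low-serum medium a day before the treatment, and the labels name no vehicle for the untreated cells. In these data PLAU was abundant and was not shown to change, PLAUR rose 1.37-fold, and the other 5 genes were weak or listed at 0.

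Plasminogen is a circulating zymogen that the serine proteases urokinase (PLAU) and tissue plasminogen activator (PLAT) cleave into plasmin, which dissolves fibrin and cuts matrix proteins. The urokinase receptor, PLAUR, is a lipid-anchored protein that holds urokinase at the cell surface. Serpins such as SERPINE2 and SERPINB2 trap the activators, and tumor cells use the balance of these proteins when they move through matrix. Thrombospondins 1 and 2 are secreted matrix glycoproteins that bind CD36 and CD47 and are known for restraining blood vessel growth.

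The bases before the start of the most abundant member (PLAU), of the member that rose (PLAUR) and of a member at 0 (THBS1) are shown because PLAU and THBS1 set the ends of the range of levels and PLAUR passed the test. They are the 250 bases before the RefSeq start on GRCh38.p14, 5′ to 3′, at chr10:73910882-73911131 on the plus strand for PLAU, chr19:43670170-43670419 on the minus strand for PLAUR and chr15:39580829-39581078 on the plus strand for THBS1. Of 2 PLAU starts in RefSeq, the one 25 bases from the GENCODE start of the main deposited PLAU transcript was used. The RefSeq starts of PLAUR and THBS1 lay 181 and 14 bases from the GENCODE starts of their main transcripts, so match positions in PLAUR depend on the start chosen. Capitals mark matches, on either strand, to the AP-1 letters TGANTCA, the GC box GGGCGG, the TATA box TATAAA and the CCAAT box.
PLAU: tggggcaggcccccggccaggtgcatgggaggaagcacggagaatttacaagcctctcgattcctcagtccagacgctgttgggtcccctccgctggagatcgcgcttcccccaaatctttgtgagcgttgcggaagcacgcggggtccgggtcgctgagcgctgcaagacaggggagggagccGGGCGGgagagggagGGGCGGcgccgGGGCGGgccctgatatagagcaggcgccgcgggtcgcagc
PLAUR: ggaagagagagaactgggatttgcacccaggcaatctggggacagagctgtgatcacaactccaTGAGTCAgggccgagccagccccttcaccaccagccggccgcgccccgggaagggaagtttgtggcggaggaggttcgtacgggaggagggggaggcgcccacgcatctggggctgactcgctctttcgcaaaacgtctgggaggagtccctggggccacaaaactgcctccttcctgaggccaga
THBS1: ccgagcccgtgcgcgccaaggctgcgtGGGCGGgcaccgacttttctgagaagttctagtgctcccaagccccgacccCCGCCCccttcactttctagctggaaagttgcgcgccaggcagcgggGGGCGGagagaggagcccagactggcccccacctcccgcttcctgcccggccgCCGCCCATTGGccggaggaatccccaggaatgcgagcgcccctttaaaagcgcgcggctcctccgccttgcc

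The PLAU window held 3 GC boxes, starting 66, 51 and 40 bases before the start, and the THBS1 window held 4 GC boxes and 1 CCAAT box that directly follows a GC box. The PLAUR window held 1 AP-1 match, 186 bases before the RefSeq start, and 0 GC boxes. Over all 35116 RefSeq promoter windows of this length, 42.6% held a GC box, 32% a CCAAT box, 10.7% a TATA box and 6.57% an AP-1 match. The matches are a description of the letters, and GC boxes stood before both the most abundant member and a member at 0.

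The read counts summed to between 34838399 and 42271299 per library. edgeR's filter kept 14728 genes, and CPM values, which scale counts to a common depth, use TMM-scaled library sizes. The labels do not say whether the libraries of a group came from separate cultures, so the p-values measure only the spread between these libraries. As markers of the line, KRT8, KRT18, KRT19 and VIM were abundant (between 171 and 11744 mean CPM in either group), EPCAM was at 0 in every library and CDH1 had 2 counts in 1 library. Of 8 fibroblast and stellate cell markers, 3 passed the filter. The summed level of all 8 was 148 to 159 CPM in untreated and 11.5 to 13.6 CPM in rhCYGB libraries. COL1A2 stood at 142 and 6.86 mean CPM and COL3A1 at 3.99 and 0.119. ACTA2 was at 5.61 and 5.30 (log2 -0.08, edgeR adjusted p = 0.548). COL3A1 passed the filter only through the untreated libraries, so its fall was built into its being tested. DCN and LUM were at 0 throughout. Of 6 endothelial markers only CDH5 passed (summed list level 109 to 122 against 10.6 to 13.6 CPM), with PECAM1, KDR and TEK at 0 in all 6 libraries. Of 8 leukocyte and platelet markers, CD68, CD14 and ITGAM passed, CD14 and ITGAM only with the untreated libraries (summed list level 39.9 to 43.4 against 71.2 to 73.6 CPM). CD68 alone was higher, at 36.0 and 71.4 mean CPM, while CD14 went from 4.10 to 0.225 and ITGAM from 1.22 to 0.363, with PTPRC and CSF1R at 0. The part of these lists in the results below was not tested.

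Levels per length separated the members widely. On the FPKM scale, which divides fragments by transcript length and sequencing depth, PLAU stood at 90.7 ± 3.20 in untreated cells (mean ± SD, n = 3 libraries), above PLAUR at 21.5 ± 2.11 and SERPINE2 at 0.819 ± 0.139. PLAT at 0.0782 ± 0.0401 and THBS2 at 0.0428 ± 0.00385 FPKM came next, and their untreated libraries overlapped, so these neighbours did not differ beyond their spread. SERPINB2 and THBS1 were last, at 0. By mean FPKM over all 6 libraries PLAU lay at percentile 95.3 of the genes tested, PLAUR at 82.6 and SERPINE2 at 19.2. The order PLAU, PLAUR, SERPINE2 was the same in each of the 6 libraries.

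**Figure D1:**
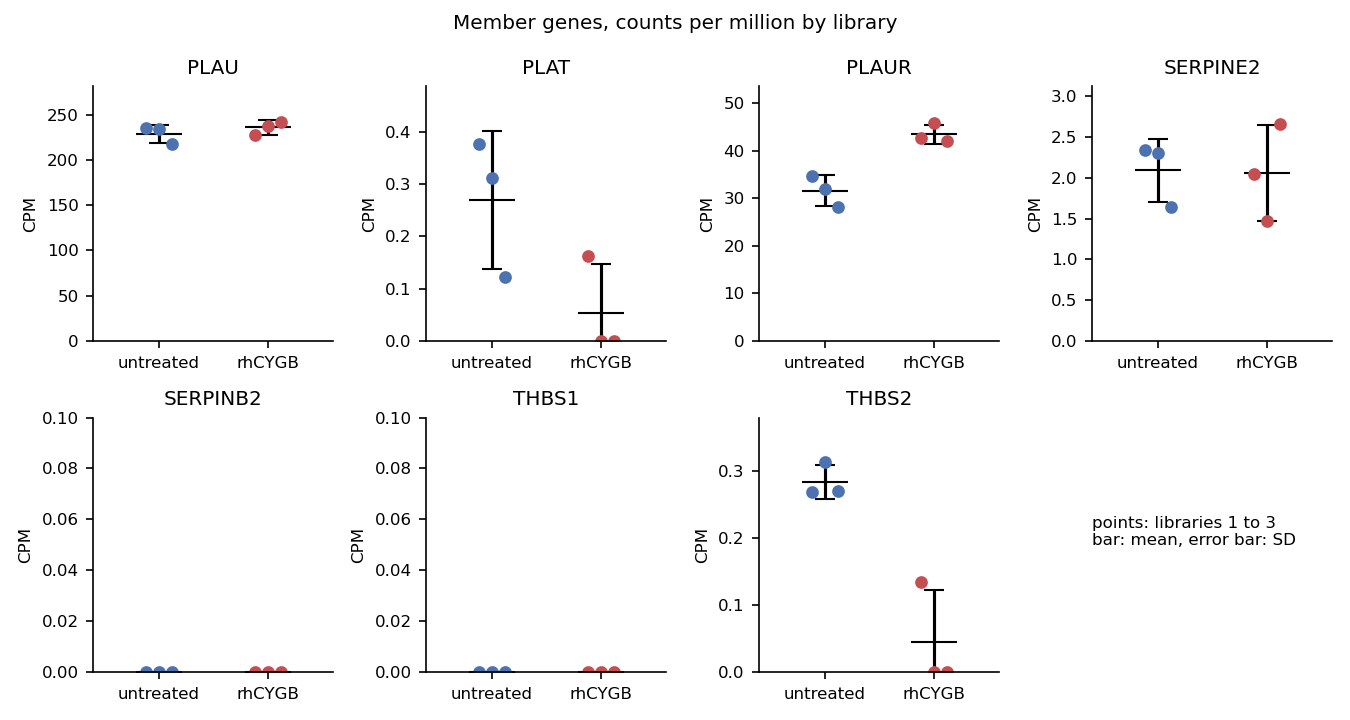
Depth-scaled counts (CPM, linear axes from 0, own scale per gene) of the 7 genes in 3 untreated and 3 rhCYGB libraries, with points for libraries, a bar for the mean and an error bar for the SD. PLAU overlapped between groups near 230 CPM, PLAUR lay higher in each rhCYGB library (42.0 to 45.8) than in any untreated one (28.1 to 34.8), and SERPINB2 and THBS1 were at 0.

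Of the plasminogen activators, PLAU (gene 5328, chromosome 10 from 75670859 to 75677259 in the deposited table, whose build is not named) had 8750, 10479 and 8867 counts in untreated and 8441, 7913 and 8937 counts in rhCYGB libraries 1, 2 and 3. This was 235, 234 and 217 CPM against 227, 238 and 242 CPM, so the groups overlapped. The fitted log2 fold change was 0.04 (standard error 0.041, edgeR quasi-likelihood test, adjusted p = 0.337), with a 95% interval from -0.04 to 0.13, or 0.970 to 1.10 on the fold scale. The sign depended on the scaling, since scaling by total counts instead of TMM factors gave a log2 value of -0.12 (adjusted p = 0.0176 from edgeR's test) and with limma on log2(FPKM + 1) also -0.12. Total counts moved the median of all genes tested from -0.00457 to -0.17, and relative to the median PLAU stood at 0.05 under both scalings of the counts and at -0.04 with limma on log2(FPKM + 1). In the deposited table PLAU lies inside C10orf55, which fell from 4.12 ± 0.673 to 1.78 ± 0.434 CPM (log2 -1.21, edgeR adjusted p = 6.67e-05). The library kit marks strand, but the sources used here do not say whether counting used it, so reads shared by these genes cannot be told apart.

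PLAT (gene 5327, chromosome 8 from 42032236 to 42065083) had 14, 14 and 5 counts in untreated and 6, 0 and 0 counts in rhCYGB libraries. Only 2 libraries, both untreated, reached the filter's cut-off of 0.258 CPM, where 3 were needed, so PLAT was not tested. The sums of 33 and 6 counts give a ratio of 0.208 with an exact 95% interval from 0.0713 to 0.503, which covers counting error only, and the lowest untreated library lay below the highest rhCYGB library.

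The receptor gene PLAUR (gene 5329, chromosome 19 from 44150247 to 44174498) had 1296, 1436 and 1148 counts in untreated and 1585, 1523 and 1549 counts in rhCYGB libraries. It measured 34.8, 32.0 and 28.1 CPM untreated and 42.7, 45.8 and 42.0 CPM after rhCYGB, so every rhCYGB library was above every untreated one. PLAUR rose from 31.7 ± 3.34 to 43.5 ± 2.01 CPM, or by 0.46 in log2 units (edgeR quasi-likelihood test, SE 0.069, adjusted p = 2.13e-05), and the fold change was 1.37 with a 95% interval from 1.24 to 1.52. The upper end of that interval lies under 2-fold. In bulk RNA, a change in the number of cells that carry a transcript and a change in RNA per cell cannot be told apart, here and in the results that follow. Over 15 alternatives the adjusted p lay between 1.16e-08 and 0.00304 (edgeR, DESeq2 or limma), and the log2 value fell to 0.29 with total counts and to 0.28 with limma on log2(FPKM + 1).

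Of the serpins, SERPINE2 or protease nexin-1 (gene 5270, chromosome 2 from 224839762 to 224904036), which blocks urokinase and thrombin, had 87, 103 and 67 counts in untreated and 76, 49 and 98 counts in rhCYGB libraries. The rhCYGB libraries held both its lowest and its highest CPM value, 1.47 and 2.66, around the untreated values of 2.34, 2.30 and 1.64. The fitted log2 fold change was -0.02 (edgeR, SE 0.239, adjusted p = 0.948), with a 95% interval from 0.693 to 1.41 on the fold scale. No difference was shown, and changes in either direction within that interval remain possible. Leaving out untreated library 1 or 2 or rhCYGB library 2 turned the sign to 0.06, 0.06 and 0.17 with no call. SERPINB2, the inhibitor also known as PAI-2 (gene 5055, chromosome 18 from 61554939 to 61571124), had 0 counts in each of the 6 libraries. A count of 0 allows up to 3 counts, so its level could be up to between 0.0669 and 0.0902 CPM, depending on the library. Whether the assembly step dropped reads of a gene cannot be seen from the deposited tables, so these limits apply to the counts as deposited.

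THBS1 (gene 7057, chromosome 15 from 39873280 to 39891667) also had 0 counts in each of the 6 libraries, with the same limits and the same reservation. THBS2 (gene 7058, chromosome 6 from 169615875 to 169654209) had 10, 14 and 11 counts in untreated and 5, 0 and 0 counts in rhCYGB libraries, or 0.268, 0.312 and 0.270 against 0.135, 0 and 0 CPM, with no overlap between the groups. THBS2 fell by 2.53 on the log2 scale (edgeR, SE 0.834, adjusted p = 0.0122). It passed the filter only through the untreated libraries, so a difference in this direction was built into its being tested. The sums of 35 and 5 counts give a ratio of 0.164 (exact 95% interval 0.050 to 0.419 for counting error only). The call was lost without rhCYGB library 3 (log2 -1.96, edgeR adjusted p = 0.0515) and with limma on log2(FPKM + 1) or log2(FPKM + 0.1) (-0.05 and -0.45). THBS2 overlaps the noncoding gene LOC101929523 in the deposited table, which had 25, 61 and 35 counts in untreated and 17, 7 and 7 counts in rhCYGB libraries (adjusted p = 0.00156 from edgeR's test). LOC101929523 passed the filter only with the untreated libraries, so a fall was built into its being tested too.

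Among the 4 members tested, PLAUR passed an adjusted p under 0.05 as higher and THBS2 as lower, while PLAU and SERPINE2 did not pass. Over all genes tested 77.6% passed, 39.0% as higher and 38.6% as lower, so a share of 2 in 4 is no result about the members. With a fold change of 2 or more as a second condition, 27.1% of all genes were called, 12.4% as higher and 14.7% as lower. THBS2 alone was called among the members with edgeR and with DESeq2, and 0 members with limma. THBS2 passed the filter only through the untreated libraries, so its fall and its lack of overlap were built into its being tested. At 2-fold 0 members were called higher by any of the 3 tools, also at an unadjusted p under 0.05. The groups' CPM ranges did not overlap for PLAUR and THBS2, against 79.5% of all genes tested. With total counts, 33.9% of the genes called at 2-fold were higher, against 45.8% with TMM factors.

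**Figure D2:**
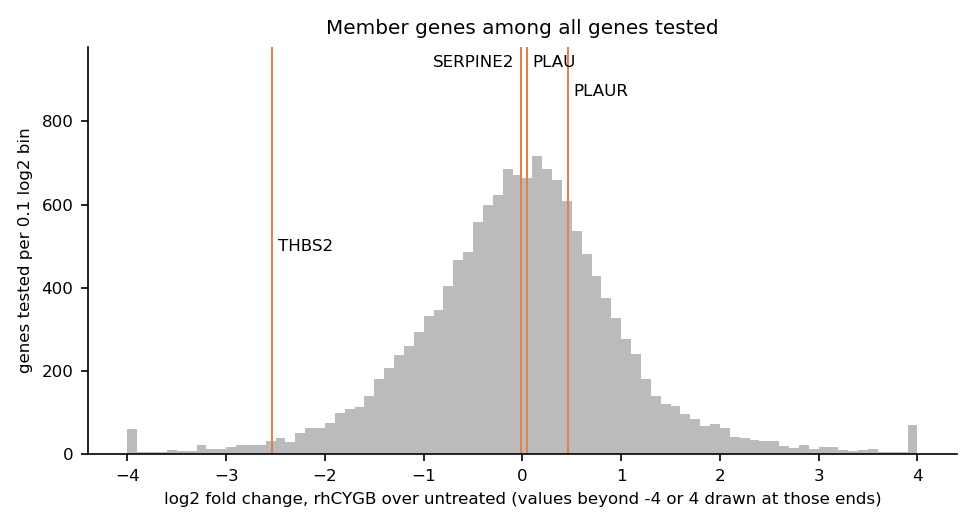
Number of genes (vertical axis, per 0.1 log2 bin) by fitted log2 fold change of rhCYGB over untreated for all 14728 genes tested. Orange lines mark PLAU (0.04), SERPINE2 (-0.02), PLAUR (0.46) and THBS2 (-2.53), of which THBS2 alone lies outside the 2-fold range. THBS2 passed the filter only through the untreated libraries.

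The deposited transcript table splits each gene's counts over RefSeq transcripts. For PLAU, NM_002658 held 95.1%, 94.4% and 96.0% of the gene's counts without rhCYGB and 93.4%, 93.2% and 91.5% with it. The groups did not overlap for this share, which is given as a description with no test. How often such shares overlap over all genes was not measured. The remaining PLAU counts fell on NM_001145031, at 2.02% ± 0.0888 in untreated and 3.66% ± 0.835 in rhCYGB libraries (mean ± SD, n = 3), and on NM_001319191. For PLAUR, NM_002659 held 89.5% ± 1.20 of the counts without rhCYGB and 91.8% ± 0.158 with it. NM_001005376, the one PLAUR transcript that differs at both ends in the deposited table (44150247 to 44174498 against 44152731 to 44174321), held 7.33% ± 0.881 and 6.44% ± 0.118. SERPINE2 had no stable main transcript, and its largest share fell on NM_006216 in untreated library 1, NR_073116 in untreated library 2 and rhCYGB library 1, and NM_001136528 in the other 3 libraries. NR_073116, deposited as misc_RNA and not as mRNA, held 75.7% of the SERPINE2 counts in untreated library 2 and 86.8% in rhCYGB library 1. The gene had at most 103 counts in a library, and its leading transcript differed within both groups. PLAT had counts on NM_000930 alone of its 3 transcripts.

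**Figure D3:**
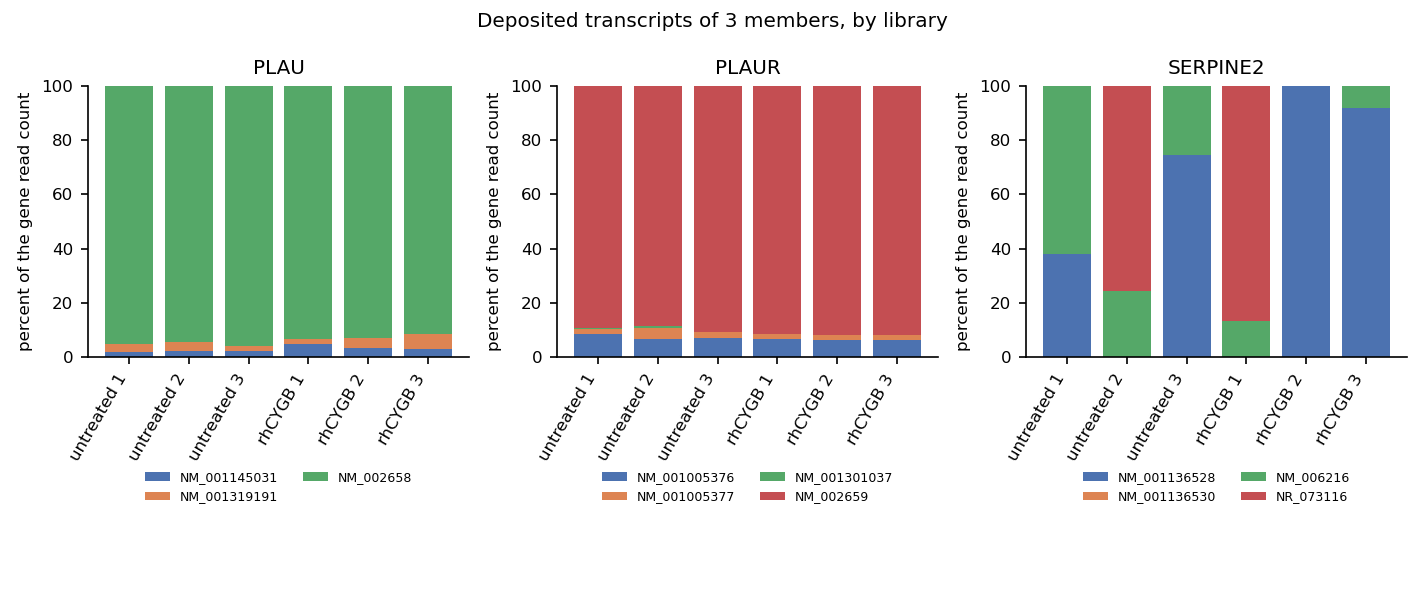
Percent of the gene's read count (vertical axis, 0 to 100) on each RefSeq transcript of PLAU, PLAUR and SERPINE2 in each library (bars, one color per transcript). NM_002658 held 91.5% to 96.0% of PLAU and NM_002659 held 88.5% to 91.9% of PLAUR, while the leading SERPINE2 transcript changed from library to library.

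The level of PLAU relative to other members was taken within each library from FPKM values. PLAU stood 3.94, 4.25 and 4.50 times above PLAUR in untreated and 3.10, 3.03 and 3.36 times in rhCYGB libraries, so the ratio was lower in every rhCYGB library. The log2 ratio differed by -0.42 (exact permutation test over libraries, two-sided p = 0.1, which is the smallest p that 3 against 3 can give). The ratio of PLAU to SERPINE2 was 97.2, 112 and 129 in untreated and 124, 153 and 87.5 in rhCYGB libraries and overlapped between the groups (log2 difference 0.08, two-sided exact permutation p = 0.8). Adjusted over these 2 ratios by Benjamini-Hochberg, p was 0.2 and 0.8. Ratios with PLAT and between the thrombospondins were not formed because libraries were at 0.

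**Figure D4:**
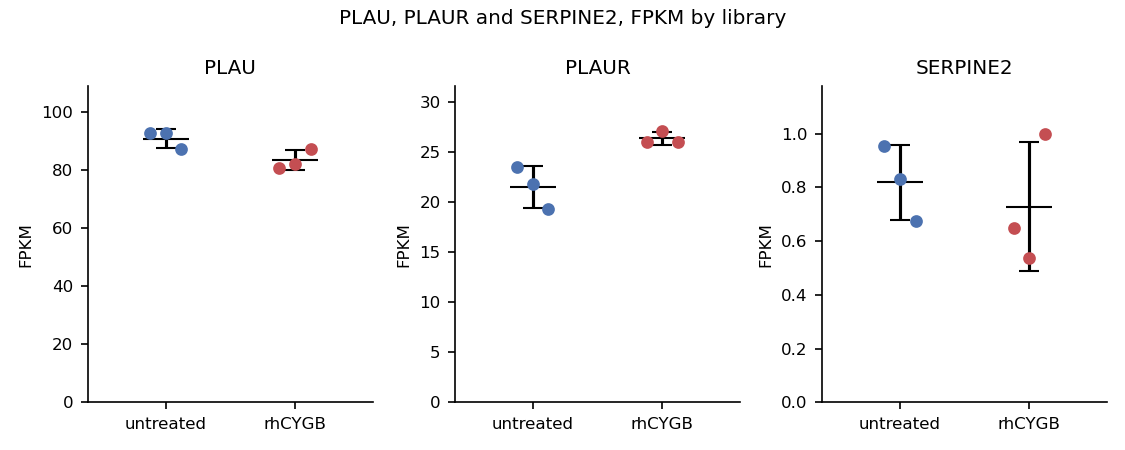
FPKM (linear axes from 0, own scale per gene) of PLAU, PLAUR and SERPINE2 in 3 untreated and 3 rhCYGB libraries, with points for libraries, a bar for the mean and an error bar for the SD. PLAUR went from 21.5 ± 2.11 to 26.4 ± 0.630 with no overlap, PLAU from 90.7 ± 3.20 to 83.3 ± 3.53 and SERPINE2 from 0.819 ± 0.139 to 0.728 ± 0.240 with overlapping libraries.

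Of 21 further genes of the plasminogen system, 13 were tested. By edgeR's test with an adjusted p under 0.05, 3 rose and 9 fell, while F12 did not pass, against 77.6% of all genes that passed, 39.0% as higher and 38.6% as lower. All 3 that rose and 3 of those that fell reached 2-fold (12.4% and 14.7% of all genes), and the median log2 fold change was -0.20 against -0.00457 over all genes tested. VLDLR, an endocytic receptor that takes up urokinase in complex with its inhibitors, rose from 4.92 ± 0.578 to 10.8 ± 0.550 CPM (log2 fold change 1.14). The inhibitors SERPINF2 (antiplasmin, log2 2.36) and SERPINI1 (neuroserpin, log2 1.09) also rose, with group means under 1 CPM, and both are named after their values were seen. SERPINF2 passed the filter only with the rhCYGB libraries, at 0, 0.290 and 0.196 against 1.02, 0.842 and 0.760 CPM, so a rise was built into its being tested. Among the genes that fell, LRP1, the main clearance receptor for urokinase in complex with its inhibitors, went from 21.9 ± 1.62 to 9.91 ± 1.00 CPM (log2 -1.14). MRC2, a collagen receptor that associates with PLAUR, went from 47.0 ± 2.70 to 16.0 ± 0.562 CPM (log2 -1.56). The PLAUR ligand vitronectin (VTN) fell by 1.69 on the log2 scale, from 1.01 ± 0.228 to 0.309 ± 0.0800 CPM. VTN passed the filter only with the untreated libraries, so a fall was built into its being tested. Each gene said here to rise or fall passed the same edgeR threshold. On limma's log2(FPKM + 1) scale, where the pseudocount understates weak genes, VLDLR was at 0.40, LRP1 at -0.61 and VTN at -0.45. PLG, the zymogen itself, and A2M, CPB2 and HPN were at 0 in all 6 libraries.

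Of 19 thrombospondin family members and partners, 14 were tested, and 3 rose and 9 fell by the same edgeR threshold (39.0% and 38.6% of all genes), with 0 of the rises and 4 of the falls reaching 2-fold (12.4% and 14.7% of all genes) and a median log2 fold change of -0.63. CD47, a receptor that THBS1 and THBS2 both bind, fell from 40.0 ± 1.01 to 12.3 ± 0.887 CPM (log2 -1.70), while CD36, the other well-known receptor, was at 0 in all 6 libraries. Perlecan (HSPG2) fell by 1.35, the integrin subunit ITGAV by 1.12 and syndecan SDC1 by 1.08 on the log2 scale, the last of which is named after its value was seen. THBS3, also outside the naming rule, was the most abundant family member, at 1896, 2314 and 2216 counts in untreated and 2982, 2747 and 3198 counts in rhCYGB libraries. On the FPKM scale THBS3 measured 15.0, 15.3 and 16.2 against 21.3, 21.3 and 23.4. Its log2 fold change was 0.67, a rise of less than 2-fold, while THBS4 stayed near 1 CPM in both groups (log2 -0.22, adjusted p = 0.504 from edgeR's test) and COMP was at 0.

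**Figure D5:**
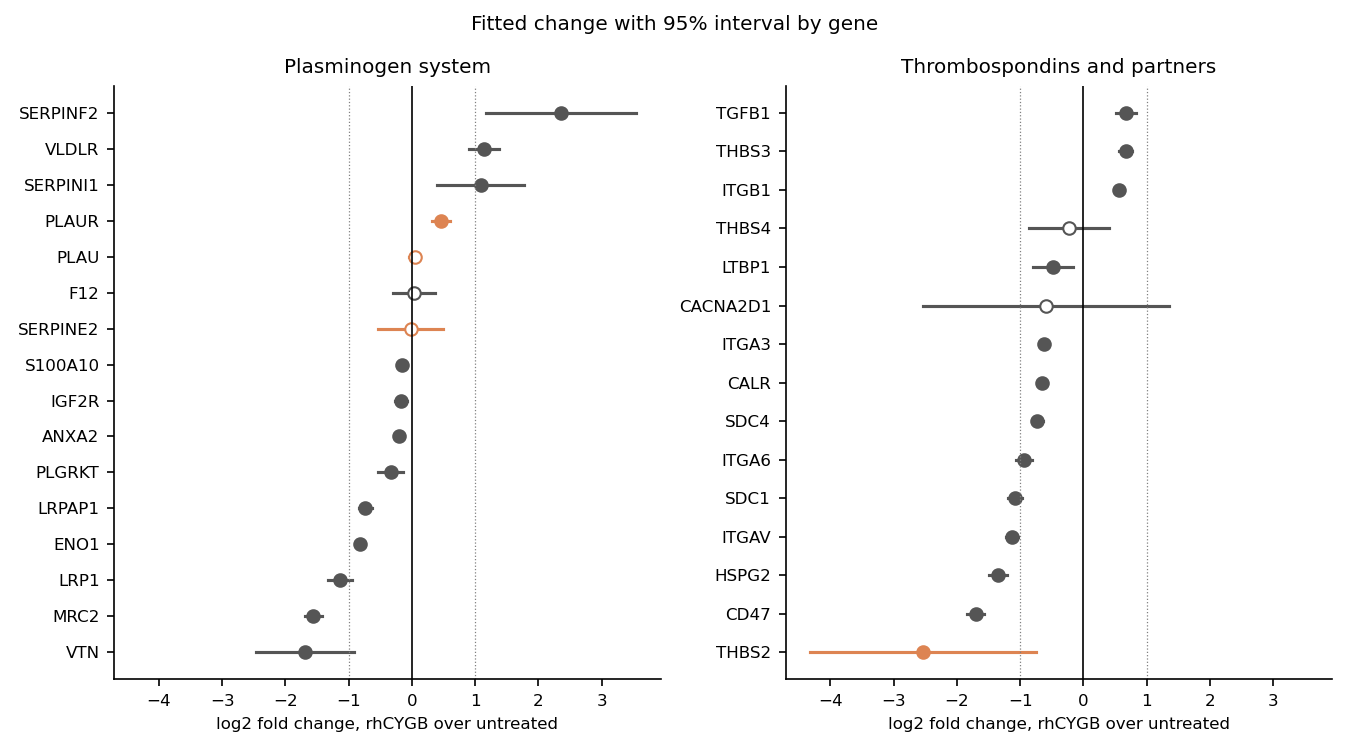
Fitted log2 fold change of rhCYGB over untreated (horizontal axis) with its 95% interval for the tested genes of both lists, the members in orange, filled points where edgeR's adjusted p was under 0.05, and dotted lines at 2-fold. VLDLR stands at 1.14 above PLAUR at 0.46 and PLAU at 0.04, and CD47 at -1.70 beside THBS2, whose interval is wide.

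The genes whose log2 CPM values followed those of a member most closely over the 6 libraries were found by the root mean square distance after centring, among 12762 genes of at least 1 CPM. They were ARL1 (0.0198) and DCAF11 (0.0208) for PLAU, PANX2 (0.0290) and UBALD2 (0.0384) for PLAUR, and the pseudogene RPS12P22 (0.0742) and CLIP3 (0.122) for SERPINE2. The distances are on the log2 scale and grow with the spread of the member. Among so many genes close matches over 6 libraries are no sign of a link, which was not tested.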

How the data were processed

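Messenger RNA of 3 untreated and 3 rhCYGB-treated MIA PaCa-2 samples was sequenced. Per the labels, reads were checked with FastQC 0.11.7, mapped with HISAT2 2.1.0 and assembled with StringTie 2.1.3b. The submitters' processing notes name a mouse build for these human cells, and the human build is not given in the sources used here. The authors deposited read counts, as whole numbers without normalization, and FPKM values, scaled to transcript length and depth, per gene and per transcript. The TPM columns that the authors deposited were not used. Samples were grouped by title.

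Counts were fitted with edgeR 4.0.16 in R 4.3.3 (filterByExpr, TMM, glmQLFit and glmQLFTest, 6 libraries, no block) and p-values were adjusted over all 14728 genes tested. Standard errors were derived from the fold change and the F statistic. Depth was 34838399 to 42271299 counts per library. Replicates were compared within groups and differed beyond sampling noise (chi-square over degrees of freedom 4.67 to 6.61). Fits were tested on simulated data in which far fewer genes changed than passed here, so that test does not bear on the choice of scaling. Alternatives were DESeq2 1.42.0 or its size factors, total counts, other filters, limma 3.58.1 on FPKM, summed transcript counts, a block and leaving out libraries.

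The text names the 7 members, per list up to 3 highest and 3 lowest genes called at 2-fold with at least 1 CPM in the higher group, and for each member of at least 1 CPM the 2 nearest genes in pattern. Members and lists were chosen with earlier results of these data known, and 1 gene of the lists is not reported here. Promoter sequences are from RefSeq (GRCh38.p14), in which all 3 genes looked up were found. Reads without molecular identifiers are not independent molecules, so count intervals and limits reflect counting error alone.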

Additional observations from a re-analysis of the deposited data

How the results depend on the processing

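PLAUR stayed higher and past the threshold under all 15 alternatives (log2 fold change 0.28 to 0.53). The 12 genes outside the members that the naming rule chose kept their direction and an adjusted p under 0.05 wherever they had a value. VTN had none with 10 counts required in every library. A 2-fold change was not always kept (VLDLR 0.97 with total counts and 0.40 with limma on log2(FPKM + 1)). Genes named after their values were seen were not followed over the alternatives. PLAU had no call with TMM or DESeq2 size factors but was lower with total counts (-0.12, edgeR adjusted p = 0.0176), limma on log2(FPKM + 1) (-0.12, adjusted p = 0.0268) and limma on log2(FPKM + 0.1) (-0.12, adjusted p = 0.0266), where the median of all genes was also lower, at -0.17, -0.09 and -0.15. Leaving out 1 library gave -0.24 to 0.17 for SERPINE2 and -6.47 to -1.96 for THBS2. THBS2 lost its call with limma on log2(FPKM + 1) (-0.053) and log2(FPKM + 0.1) (-0.45) and had no value with 10 counts required in every library. The number of members called lower at 2-fold was 0 under those 3 settings, and 0 to 2 without 1 library (0 without rhCYGB library 3), since PLAT passed the filter and was called without untreated library 3 or rhCYGB library 1 (edgeR adjusted p = 0.0271 and 0.00333). In both cases PLAT passed through untreated libraries only, so a lower value was built into its being tested. Over all genes, 1172 and 2327 of 14728 were called lower at 2-fold with limma on log2(FPKM + 1) and log2(FPKM + 0.1). With 10 counts required in every library 1728 of 13396 were, and without 1 library 2135 to 2267 of 14915 to 15001. The member counts are therefore no result about the members. With no filter PLAT had an adjusted p of 0.0852 from edgeR's test, and SERPINB2 and THBS1 gave no value under any setting.

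Of the plasminogen system list, 1 gene was called higher at 2-fold with total counts, 0 with limma on log2(FPKM + 1) and 1 with limma on log2(FPKM + 0.1), against 3, and 1 was called lower with limma on log2(FPKM + 1), against 3. Of the serpins, 2 were called higher, against 1 with total counts, 1 with 10 counts required in every library, 0 with limma on log2(FPKM + 1), 1 with limma on log2(FPKM + 0.1), and 1 to 2 without 1 library (1 without untreated library 1). limma on log2(FPKM + 1) called 1977 genes in all, against 3998. Over all genes, 1395 were called higher with total counts, 805 with limma on log2(FPKM + 1) and 1282 with limma on log2(FPKM + 0.1), against 1833. With 10 counts required in every library 1535 were called higher. FPKM gave NM_002659 a share of 91.9% of PLAUR after rhCYGB. Samples with the same replicate number did not deviate together (correlations -0.048, 0.00715 and 0.00554 across genes), and with the number as a block 3978 genes were called, with log2 fold changes of 0.04 for PLAU, 0.46 for PLAUR, -0.04 for SERPINE2 and -2.66 for THBS2. The depth limits PLAT, THBS2 and SERPINE2, and the 3 libraries per group limit every interval.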

Other observations

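A list of 20 genes of blood clotting and related proteins was also measured, of which 10 were tested and 7 were at 0 in every library. By edgeR's test, adjusted over all genes, 3 rose and 6 fell at the 0.05 level, where 77.6% of all genes passed, 39.0% as higher and 38.6% as lower. Among those that fell, TFPI2 had 36, 40 and 42 counts in untreated and 0, 8 and 10 counts in rhCYGB libraries, and is named after its value was seen. TFPI2 passed the filter only through the untreated libraries, so its fall was built into its being tested. Tissue factor (F3), which starts coagulation, rose from 54, 49 and 41 counts in untreated to 275, 236 and 229 counts in rhCYGB libraries, or from 1.18 ± 0.235 to 6.90 ± 0.618 CPM (log2 fold change 2.55, and 1.25 with limma on log2(FPKM + 1)). PROCR, the endothelial protein C receptor, rose from 16.8 ± 0.752 to 29.5 ± 0.898 CPM, under 2-fold, and is named after its value was seen. Protein S (PROS1), a cofactor of activated protein C, fell from 31.8 ± 4.53 to 6.75 ± 0.623 CPM (log2 -2.24). GAS6, a relative of protein S and ligand of the TAM receptors, fell by 1.14 on the log2 scale. The thrombin receptor F2R, also named after its value was seen, fell from 553 ± 5.79 to 444 ± 2.40 CPM. The coagulation list had a median log2 fold change of -0.39.

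Of 35 rows with a serpin symbol outside the members, pseudogenes included, 22 were at 0 in every library and 10 were tested, of which 3 rose and 6 fell by the same threshold (77.6% of all genes passed). Of the 3 that rose, SERPINF2 and SERPINI1 are also counted in the plasminogen list, and SERPINF2 passed the filter only with the rhCYGB libraries. SERPINA3, an inhibitor of chymotrypsin-like proteases, fell from 391 ± 3.60 to 165 ± 0.913 CPM (log2 -1.24), and SERPINB9, an inhibitor of granzyme B, from 89.3 ± 4.20 to 27.7 ± 2.67 CPM (log2 -1.69). SERPINH1, the collagen chaperone, which is named after its value was seen, fell by 0.27 on the log2 scale.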
